A study of Mus musculus with 6 samples.

Results

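The glucocorticoid receptor target genes described here are 10 genes that are known to be induced directly by the hormone-bound receptor: *Tsc22d3*, *Per1*, *Zbtb16*, *Klf9*, *Dusp1*, *Sgk1*, *Ddit4*, *Cebpd*, *Errfi1* and *Map3k6*. They were chosen by name, without *Fkbp5*, at a time when their genotype difference in these libraries was already known, so their values between genotypes are given as a description. No p-value is given for any of them, and calls from the fits over all genes are only counted, beside the share of all tested genes with the same call, as no independent evidence. All 10 were found among the 16579 genes of the deposited table, and all 10 were among the 12256 genes that passed the filter on low counts. RNA came from megakaryocytes (MKs) that were isolated from mouse bone marrow (BM) by fluorescence-activated sorting, in 3 *Becn1*f/f libraries and 3 libraries labelled *Becn1*f/f;*Pf4-iCre*, for short *Pf4-iCre*. The mice were 3 months old. Both genotypes carry the floxed *Becn1* allele, whose gene encodes Beclin 1, an autophagy protein, and the second also carries a Cre recombinase under *Pf4* regulatory sequence, which is meant to delete the gene in the megakaryocytic lineage. The *Becn1*f/f libraries serve as controls. No treatment with a glucocorticoid is given in the labels or the methods, so the comparison is one of genotype at whatever hormone level the mice had.

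Glucocorticoids enter the cell and bind their receptor, the product of *Nr3c1*, which is held in the cytoplasm by a complex of heat shock proteins and immunophilins. The bound receptor moves to the nucleus, where it binds palindromic DNA elements and recruits coactivators, and it also restrains inflammatory genes that depend on NF-kappaB and AP-1. Its induced genes include inhibitors of inflammatory and growth factor signalling, kinases of ion transport and stress signalling, a clock gene and several transcription factors, and they are used across many tissues as a readout of receptor activity. In the BM, glucocorticoids are known for raising the number of circulating neutrophils, for supporting stress erythropoiesis and for favouring anti-inflammatory states of macrophages. Several of the same genes respond to other stimuli as well, among them mitogens, cyclic AMP, hypoxia and the stress of cell isolation.

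The libraries held 16467572 to 17156738 estimated reads each, so depth differed little between the genotypes. The targeted gene was measured at 118.4 ± 9.37 CPM (SD, n = 3; CPM are counts relative to TMM-scaled library size) in the controls and at 106.9 ± 2.74 CPM (SD, n = 3) in the libraries labelled *Pf4-iCre*, a ratio of 0.903. This difference did not pass edgeR's quasi-likelihood test (log2 fold change -0.15, SE 0.12, adjusted p = 0.935 with Benjamini-Hochberg adjustment), so the label is used here as a label only. By RT-qPCR, the paper reports less *Becn1* transcript in CD41-positive marrow cells (MKs and platelets) of the *Pf4-iCre* mice. It also reports no detectable Beclin 1 protein in their platelets. The markers of 16 MK and platelet genes together took 0.0428% to 0.0528% of counts in the controls and 0.0426% to 0.0475% in the libraries labelled *Pf4-iCre*, while 14 neutrophil markers took 1.21% to 1.63% and 0.903% to 1.25%. The neutrophil markers thus took more counts than those of the labelled cell type in every library. So did the listed markers of macrophages and those of mast cells, basophils and eosinophils. The levels below are those of the sorted RNA, whose share from MKs was not tested. No MK marker was at 0 in every library. *Pf4* (platelet factor 4) itself had 13.95, 24.10 and 15.52 FPKM (fragments corrected for transcript length and depth) in controls 1, 2 and 3, and it was downregulated, with 10.40, 8.13 and 7.88 FPKM in libraries 1, 2 and 3 labelled *Pf4-iCre* (log2 fold change of CPM -1.01, SE 0.29, adjusted p = 0.423 by edgeR). Of the 14 tested MK and platelet markers, *Pf4* alone was lower by 1.5-fold or more at an unadjusted *P* under 0.05 in edgeR. Of all tested genes, 0.938% were. None of the 14 was upregulated, 4 had a higher and 10 a lower mean, and their median log2 fold change was -0.10. In such bulk samples, fewer cells of a type and less RNA per cell cannot be told apart.

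The promoters of these genes show which response elements lie close to their start sites. RefSeq promoter windows on GRCm38.p6, from 250 bases before to 50 bases after a start site, were matched to 8 of the 10 genes, with 17 windows in all because several genes have more than 1 start site. *Zbtb16* and *Cebpd* had no entry in the table. Windows were searched on both strands for the receptor half-site (AGAACA or its reverse TGTTCT), for the palindrome of both half-sites spaced by 3 bases of any kind, for the cyclic AMP response element TGACGTCA, for the E-box CACGTG that clock factors bind, and for the AP-1 motif TGANTCA. A half-site match includes those inside a palindrome. Printed are 5 of the windows with a receptor motif, a cyclic AMP element or an E-box, 5′ to 3′ on the strand of the gene, chosen because they set the receptor element of *Sgk1* beside the elements of other pathways in *Dusp1*, *Errfi1* and *Per1*. Capitals mark the motifs searched, and in *Sgk1* the E-box and the following half-site share bases.
*Sgk1* (chr10:21993640-21993939, plus strand): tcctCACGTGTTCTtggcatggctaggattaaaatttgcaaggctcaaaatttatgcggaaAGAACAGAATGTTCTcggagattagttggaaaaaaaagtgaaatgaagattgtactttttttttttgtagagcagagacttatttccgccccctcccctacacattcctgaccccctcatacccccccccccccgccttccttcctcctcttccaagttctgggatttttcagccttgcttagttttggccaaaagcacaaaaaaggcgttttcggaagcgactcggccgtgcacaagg
*Tsc22d3* (chrX:140600473-140600772, minus strand): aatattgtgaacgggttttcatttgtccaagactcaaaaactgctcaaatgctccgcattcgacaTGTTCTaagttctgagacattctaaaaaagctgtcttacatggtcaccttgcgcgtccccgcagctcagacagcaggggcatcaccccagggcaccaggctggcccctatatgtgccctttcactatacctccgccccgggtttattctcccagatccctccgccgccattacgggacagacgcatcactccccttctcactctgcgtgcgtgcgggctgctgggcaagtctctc
*Dusp1* (chr17:26508423-26508722, minus strand): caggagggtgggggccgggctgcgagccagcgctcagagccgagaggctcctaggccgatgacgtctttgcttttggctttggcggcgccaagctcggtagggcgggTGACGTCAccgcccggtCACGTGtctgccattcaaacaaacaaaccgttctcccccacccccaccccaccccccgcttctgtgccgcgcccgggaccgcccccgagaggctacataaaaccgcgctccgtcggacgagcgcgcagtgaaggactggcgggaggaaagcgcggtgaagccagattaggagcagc
*Errfi1* (chr4:150854820-150855119, plus strand): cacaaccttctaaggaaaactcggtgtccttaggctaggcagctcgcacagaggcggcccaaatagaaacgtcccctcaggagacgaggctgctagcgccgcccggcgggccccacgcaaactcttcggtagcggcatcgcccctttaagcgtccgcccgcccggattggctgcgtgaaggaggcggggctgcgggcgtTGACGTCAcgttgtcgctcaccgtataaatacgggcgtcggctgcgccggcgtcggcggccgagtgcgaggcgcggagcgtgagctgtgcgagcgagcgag
*Per1* (chr11:69098699-69098998, plus strand): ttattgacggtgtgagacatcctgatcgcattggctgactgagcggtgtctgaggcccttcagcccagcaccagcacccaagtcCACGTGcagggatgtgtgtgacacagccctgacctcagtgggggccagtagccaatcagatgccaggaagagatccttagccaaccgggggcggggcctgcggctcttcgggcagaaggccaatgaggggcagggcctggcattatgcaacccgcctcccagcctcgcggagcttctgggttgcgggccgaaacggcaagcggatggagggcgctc

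The palindrome was found in 1 of these 17 windows, the printed one of *Sgk1*. It reads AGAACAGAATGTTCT and starts 189 bases before the start site of that window. The other windows of *Sgk1*, at other start sites, did not hold it. Over the whole RefSeq table, 3 of the 32851 promoter windows held the palindrome (0.00913%). A half-site of either direction was in 4 of the 17 windows, against 18.97% of all windows. Most of the 4 were from *Sgk1* and the rest from *Tsc22d3*. The half-site of *Tsc22d3* starts 185 bases before the start site of the printed window, and its other windows held none. The cyclic AMP element was found in the printed windows of *Dusp1* and *Errfi1*, starting 143 and 51 bases before their start sites. Of all windows, 1.79% held that element. The E-box was in 3 of the 17 windows, from *Sgk1*, *Per1* and *Dusp1*, against 7.15% of all windows. The AP-1 motif was in that of *Klf9* alone, against 7.81%. The windows of these genes had a median GC content of 60.3%, against 52.7% over all windows. A match is a description of the letters and not of binding, and the absence of a motif says only that these letters are not in the window.

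Per transcript length, the genes covered a wide range of levels in these libraries (plot of FPKM by library). *Dusp1*, a phosphatase that inactivates MAP kinases, was the highest by far, with 360.1, 587.2 and 727.2 FPKM in controls 1, 2 and 3. Its mean of 558.2 ± 185.3 FPKM (SD, n = 3) lay at percentile 99.0 of the genes with a nonzero mean FPKM in the controls. Next came *Tsc22d3*, *Per1* and *Sgk1*, with control means of 80.8 ± 11.8, 74.98 ± 11.0 and 70.04 ± 10.3 FPKM (SD, n = 3 each), whose ranges over the controls overlapped, so no order can be read among them. *Ddit4* (40.9 ± 5.51 FPKM), *Cebpd* (29.5 ± 2.52 FPKM), *Klf9* (12.1 ± 2.46 FPKM) and *Map3k6* (6.39 ± 0.060 FPKM) followed, each with a range apart from its neighbours. *Errfi1* and *Zbtb16* were the lowest, with overlapping ranges around means of 4.49 ± 1.33 and 4.05 ± 1.53 FPKM, at percentiles 45.0 and 43.7. The receptor gene *Nr3c1* had 27.8 ± 2.82 FPKM in the controls. Together the 10 genes took 0.152%, 0.185% and 0.201% of counts in the controls and 0.224%, 0.230% and 0.285% in libraries 1, 2 and 3 labelled *Pf4-iCre*, sums in which *Dusp1* weighs most.

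**Figure D1:**
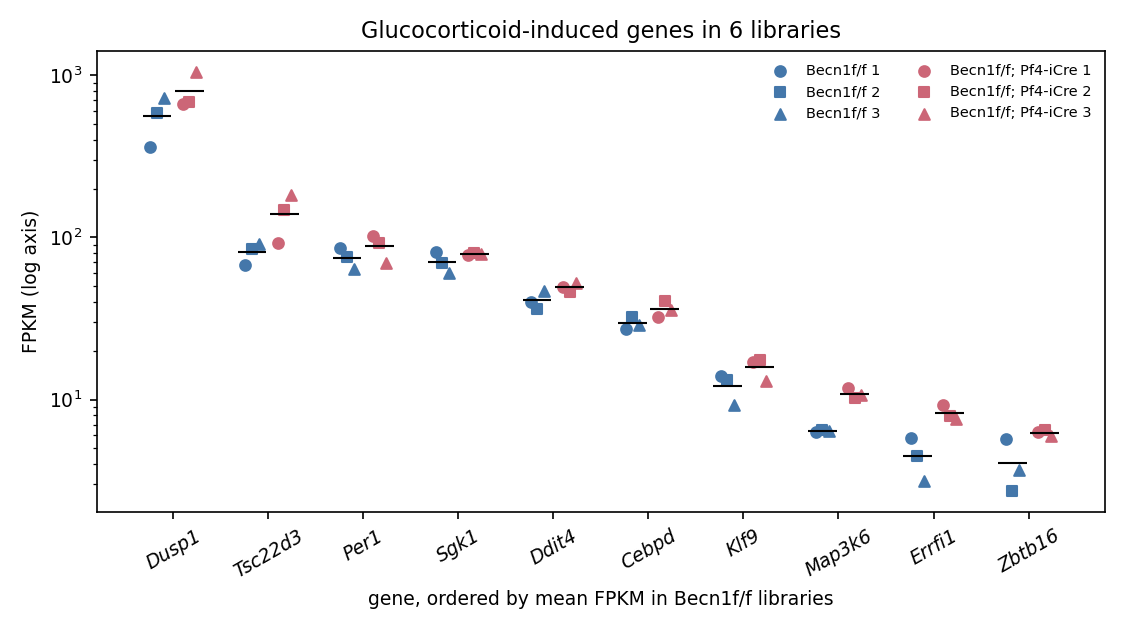
FPKM of the 10 glucocorticoid-induced genes in each of the 6 libraries on a log axis, ordered by the mean of the *Becn1*f/f libraries; symbols stand for library numbers, colours for genotype labels, and short lines for group means. *Dusp1* lies near the top of the range in every library (360.1 to 1050 FPKM), and *Errfi1* and *Zbtb16* lie lowest.

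Between the genotypes, all 10 genes had a higher mean in the libraries labelled *Pf4-iCre*, by log2 fold changes of 0.19 (*Sgk1*) to 0.88 (*Errfi1*). Of all 12256 tested genes, 5578 had a positive and 6678 a negative log2 fold change. These numbers are also the background for the direction counts of the lists below. The median over the 10 genes was 0.47, beside -0.02 over all tested genes. The differences were smaller than that of *Fkbp5*, the receptor's immunophilin and best known induced gene, which had 83.5, 108.2 and 127.1 CPM in controls 1, 2 and 3 and 311.1, 325.3 and 351.9 CPM in libraries 1, 2 and 3 labelled *Pf4-iCre* (log2 fold change 1.63, SE 0.16). In 5 of the 10 genes, the 3 libraries labelled *Pf4-iCre* all lay above the 3 controls, a pattern that 5.42% of all tested genes had. A gene was called upregulated or downregulated where it differed by 1.5-fold or more with an unadjusted *P* under 0.05. These thresholds were passed upwards by 4 of the 10, *Errfi1*, *Tsc22d3*, *Map3k6* and *Zbtb16*, and by 1.36% of all tested genes, and 0 of the 10 were downregulated in edgeR or DESeq2, against 0.938% of all tested genes in edgeR. Nothing is read from these counts, since the choice of the genes used the same values.

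*Tsc22d3*, *Dusp1*, *Errfi1* and *Ddit4* encode proteins that damp signalling. *Tsc22d3* encodes GILZ, which mediates much of the anti-inflammatory action of glucocorticoids by binding NF-kappaB and AP-1. It had 148.9, 175.5 and 184.1 CPM in controls 1, 2 and 3 and 205.3, 293.4 and 368.9 CPM in libraries 1, 2 and 3 labelled *Pf4-iCre*, a log2 fold change of 0.77 (SE 0.19). The groups did not overlap, but the libraries labelled *Pf4-iCre* were spread widely, and without the third of them the log2 fold change was 0.56 and *Tsc22d3* no longer passed the thresholds. *Dusp1* had 600.9, 945.2 and 1145 CPM in controls 1, 2 and 3 and 1126, 1092 and 1694 CPM in libraries 1, 2 and 3 labelled *Pf4-iCre*, a log2 fold change of 0.54 (SE 0.24). Control 1 was low, control 3 lay above libraries 1 and 2 labelled *Pf4-iCre*, and the groups therefore overlapped. *Dusp1* passed the thresholds once GC content and transcript length were corrected for (log2 fold change 0.63), and also without control 3 or without library 1 or 2 labelled *Pf4-iCre*, but not in the other 12 of 16 alternative settings. Its log2 fold change was 0.33 without control 1 and 0.31 without library 3 labelled *Pf4-iCre*. *Errfi1* encodes a feedback inhibitor of the EGF receptor family. It had 16.4, 12.1 and 8.35 CPM in controls 1, 2 and 3 and 25.95, 21.3 and 20.6 CPM in libraries 1, 2 and 3 labelled *Pf4-iCre*, a log2 fold change of 0.88 (SE 0.22). The groups were apart, and *Errfi1* passed the thresholds in all 16 alternative settings. *Ddit4* encodes REDD1, which restrains mTORC1 and also responds to hypoxia. It had 55.7, 49.1 and 62.3 CPM in controls 1, 2 and 3 and 70.4, 62.2 and 71.3 CPM in libraries 1, 2 and 3 labelled *Pf4-iCre* (log2 fold change 0.29, SE 0.14), and control 3 reached the lowest of the other libraries.

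The kinases *Sgk1* and *Map3k6* differed in how far the groups were apart. The *Sgk1* kinase keeps sodium channels and other transporters at the cell surface, and 1 promoter window of the gene holds the palindrome printed above. *Sgk1* had 178.0, 147.3 and 124.6 CPM in controls 1, 2 and 3 and 173.5, 170.1 and 168.8 CPM in libraries 1, 2 and 3 labelled *Pf4-iCre*. Its log2 fold change was 0.19 (SE 0.15), with 0.34 without control 1 and 0.07 without control 3, and control 1 was the highest of all 6 libraries. *Map3k6* encodes a MAP kinase kinase kinase of the stress-activated pathways. It had 27.4, 26.7 and 27.9 CPM in controls 1, 2 and 3 and 50.6, 43.0 and 45.4 CPM in libraries 1, 2 and 3 labelled *Pf4-iCre*, a log2 fold change of 0.76 (SE 0.13). The controls were close together, with a coefficient of variation (SD over mean) of 2.30% beside a median of 14.3% over all tested genes, and *Map3k6* passed the thresholds in all 16 alternative settings.

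Of the clock gene and the transcription factors, *Zbtb16* alone passed the thresholds. *Per1*, a repressor of the circadian clock, had 391, 329.6 and 273.9 CPM in controls 1, 2 and 3 and 463.3, 407 and 308.3 CPM in libraries 1, 2 and 3 labelled *Pf4-iCre* (log2 fold change 0.25, SE 0.18). The groups overlapped, as control 1 lay above library 3 labelled *Pf4-iCre*. *Klf9*, a Krüppel-like factor that acts as a feedforward repressor of glucocorticoid-regulated genes, had 59.8, 53.9 and 37.5 CPM in controls 1, 2 and 3 and 72.7, 72.4 and 54.2 CPM in libraries 1, 2 and 3 labelled *Pf4-iCre* (log2 fold change 0.40, SE 0.19), and the groups again overlapped. *Zbtb16*, which encodes the zinc finger repressor PLZF, had 43.2, 19.6 and 26.02 CPM in controls 1, 2 and 3 and 47.4, 46.7 and 43.7 CPM in libraries 1, 2 and 3 labelled *Pf4-iCre*. Its log2 fold change was 0.63 (SE 0.23), the groups were apart only by the small step from 43.2 to 43.7 CPM, and the controls varied by 41.2% (coefficient of variation) against 4.34% among the other libraries. *Zbtb16* passed the thresholds in 11 of 16 alternative settings. It did not pass without control 2, without control 3 or without library 1 labelled *Pf4-iCre*. Nor did it pass with limma on log2(FPKM + 1), with or without the filter on mean FPKM. The log2 fold change of *Zbtb16* was 1.02 without control 1 and 0.41 without control 2, where that of *Klf9* was 0.45. *Cebpd*, a C/EBP family factor of the acute phase and of myeloid cells, had 54.6, 62.1 and 54.4 CPM in controls 1, 2 and 3 and 65.2, 77.5 and 68.5 CPM in libraries 1, 2 and 3 labelled *Pf4-iCre* (log2 fold change 0.30, SE 0.13). These groups were apart, with a difference below the fold threshold.

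**Figure D2:**
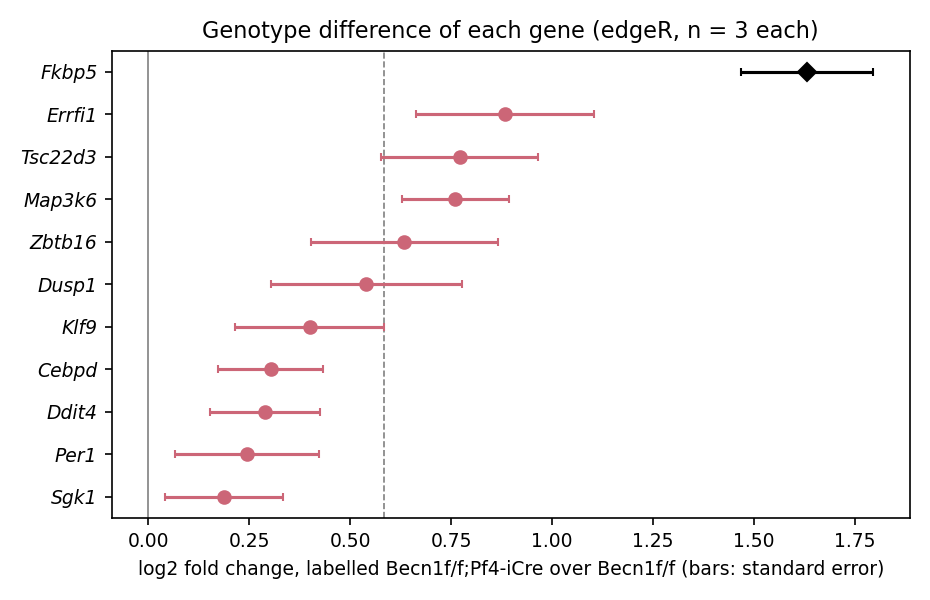
Log2 fold change of each gene between the libraries labelled *Pf4-iCre* and the *Becn1*f/f libraries (edgeR, n = 3 each), with bars of 1 SE; the dashed line marks a fold change of 1.5, and the black diamond is *Fkbp5*. All 10 genes lie to the right of 0, from 0.19 (*Sgk1*) to 0.88 (*Errfi1*), and *Fkbp5* lies at 1.63.

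At an adjusted p under 0.05, edgeR's quasi-likelihood test called 0 of the 10 genes and 0.0408% of all tested genes, while 6 of the 10 had an unadjusted *P* under 0.05, against 6.3% of all tested genes. DESeq2 called 3 of the 10 (*Errfi1*, *Map3k6* and *Tsc22d3*) at an adjusted p under 0.05, as it did 0.667% of the 11542 genes with such a value. Nothing is read from these counts either. All 10 had a positive log2 fold change in 16 of 16 alternative settings. Nothing labels the replicates as separate mice, so p-values here measure the spread between these libraries.

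Within a genotype, the genes did not follow a single order of libraries (heat map of each gene relative to its control mean). *Errfi1*, *Sgk1*, *Per1*, *Klf9* and *Zbtb16* were higher in library 1 than in library 3 in both genotypes, as were 24.6% of all tested genes. *Tsc22d3*, *Dusp1* and *Ddit4* were higher in library 3 than in library 1 in both genotypes, as were 25.8% of all tested genes, and *Fkbp5* had the same order as *Tsc22d3*. This grouping was noticed after the values were seen. The replicate numbers name different samples, and the same-numbered libraries of both genotypes did not consistently deviate together across genes. Relative to the control means, the median over the 10 genes was 0.13, 0.02 and -0.09 (log2) in controls 1, 2 and 3 and 0.44, 0.50 and 0.50 in libraries 1, 2 and 3 labelled *Pf4-iCre*. In the latter, 10, 10 and 9 of the 10 genes lay above their control mean, the exception being *Per1* in library 3.

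**Figure D3:**
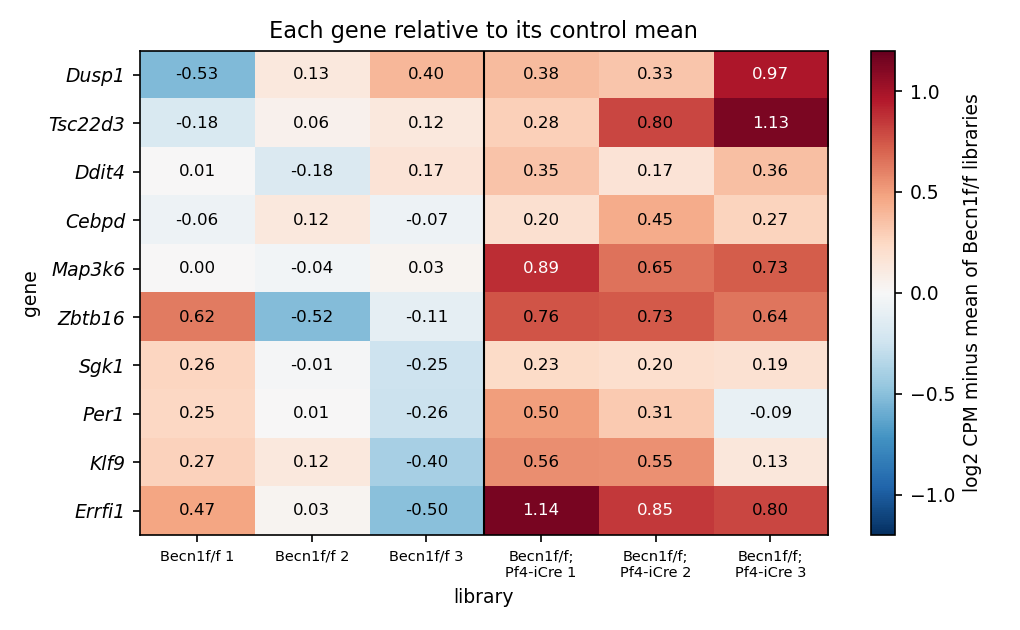
Log2 CPM of each gene in each library minus the mean of the *Becn1*f/f libraries, which are the columns left of the vertical line; red is higher and blue lower. The libraries labelled *Pf4-iCre* are red in all rows but *Per1* in library 3, while the controls split into genes highest in control 1 (*Errfi1*, *Klf9*, *Per1*, *Sgk1*, *Zbtb16*) and genes highest in control 3 (*Tsc22d3*, *Dusp1*, *Ddit4*, *Map3k6*), with *Cebpd* highest in control 2.

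Apart from *Fkbp5*, given above, no listed gene of the receptor's own apparatus passed the thresholds. Of 5 tested genes for the receptor and ligand handling, 0 passed in edgeR, 0 had an unadjusted *P* under 0.05 and 0 passed in DESeq2, with a median log2 fold change of 0.01. *Nr3c1* had 192.4, 150.9 and 163.9 CPM in controls 1, 2 and 3 and 178.1, 243.3 and 199.7 CPM in libraries 1, 2 and 3 labelled *Pf4-iCre* (log2 fold change 0.29, SE 0.15), and the groups overlapped. *Hsd11b1*, whose enzyme regenerates active glucocorticoid from its inert form, had a mean of 34.7 FPKM in the controls and 31.8 FPKM in the libraries labelled *Pf4-iCre* (log2 fold change -0.12, SE 0.13). Of 11 receptor chaperone genes, 0 passed in edgeR or DESeq2 and 1 had an unadjusted *P* under 0.05, with a median of -0.12, and the 2 most abundant had log2 fold changes of 0.41 (*Hspa8*, SE 0.15) and -0.21 (*Hsp90ab1*, SE 0.14). Of 14 coregulator genes, 0 passed in edgeR or DESeq2 and 0 had an unadjusted *P* under 0.05, with a median of 0.09. *Smarca4*, the remodelling ATPase BRG1, had a log2 fold change of -0.21 (SE 0.15) and *Ncor1*, a corepressor, 0.04 (SE 0.14).

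Among 29 tested genes that are also known to be induced by glucocorticoids, 5 were upregulated and 1 was downregulated, 21 had a higher and 8 a lower mean, and the median log2 fold change was 0.25. Like the 10 genes, this list was written with earlier results of these data known. *Sult1a1*, a phenol sulfotransferase, had 2.01, 0.92 and 1.92 CPM in controls 1, 2 and 3 and 4.50, 6.03 and 4.75 CPM in libraries 1, 2 and 3 labelled *Pf4-iCre* (log2 fold change 1.66, SE 0.30, edgeR adjusted p = 0.0965). *Thbd*, the anticoagulant receptor thrombomodulin, rose from 78.1, 74.6 and 57.5 CPM to 130.8, 132.3 and 112.9 CPM (log2 fold change 0.84, SE 0.15, edgeR adjusted p = 0.0922). *Glul*, glutamine synthetase, rose from 216.1, 188.1 and 189.8 CPM to 302.2, 330.1 and 321.1 CPM (log2 fold change 0.68, SE 0.13, edgeR adjusted p = 0.102). In all 3 the groups were apart, as they were for *Cd163*, the haemoglobin scavenger receptor of macrophages (log2 fold change 0.70, SE 0.20), and for *Bcl6*, a transcriptional repressor (log2 fold change 0.59, SE 0.13). *Txnip*, the thioredoxin inhibitor, was downregulated, with 385.9, 172.0 and 234.8 CPM in controls 1, 2 and 3 and 154.0, 165.6 and 200.2 CPM in libraries 1, 2 and 3 labelled *Pf4-iCre* (log2 fold change -0.61, SE 0.24), and the groups overlapped.

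Of 18 tested inflammatory genes that glucocorticoids are known to repress, 3 were downregulated and 1 was upregulated, and the median log2 fold change was -0.23. Of the 18, 11 had a lower and 7 a higher mean, and 7 had an unadjusted *P* under 0.05. The libraries labelled *Pf4-iCre* all lay above the controls in 3 of these genes and all below them in 2. Of all 12256 tested genes, 664 had the first pattern and 635 the second. *Cxcl1*, a neutrophil chemoattractant, had 17.9, 11.6 and 4.74 CPM in controls 1, 2 and 3 and 2.70, 2.59 and 2.08 CPM in libraries 1, 2 and 3 labelled *Pf4-iCre* (log2 fold change -2.21, SE 0.40, edgeR adjusted p = 0.0942). *Cxcl10*, a chemokine of the interferon response (log2 fold change -0.77, SE 0.23), and *Mmp9*, a gelatinase of neutrophil granules (log2 fold change -0.59, SE 0.22), were downregulated with overlapping groups. The monocyte chemoattractant *Ccl2* went the other way, from 58.3, 56.7 and 36.8 CPM to 102.0, 98.97 and 116.6 CPM (log2 fold change 1.07, SE 0.18, edgeR adjusted p = 0.0830). The number downregulated was 5 without control 3 or without library 1 labelled *Pf4-iCre*. It was 2 with the GC and length correction, with the replicate number as a block and in every limma setting. The median of the list was 0.18 without control 1.

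Immediate early genes, which respond to mitogens and to cell handling, and to which *Dusp1* and *Per1* are close in their induction, mostly had higher means in the libraries labelled *Pf4-iCre* as well. Of 21 tested, 18 had a higher mean, the median log2 fold change was 0.26, 5 had an unadjusted *P* under 0.05 and 1 was upregulated. That gene was *Klf4*, a Krüppel-like factor of monocytes and other cells, with 539.6, 424.2 and 417.0 CPM in controls 1, 2 and 3 and 710.1, 770.7 and 717.6 CPM in libraries 1, 2 and 3 labelled *Pf4-iCre* (log2 fold change 0.67, SE 0.15, edgeR adjusted p = 0.172). The median over the list relative to the control means was 0.17, 0.25 and 0.30 (log2) in libraries 1, 2 and 3 labelled *Pf4-iCre*. Without control 1, 5 were upregulated, and 3 or 4 without any other single library, with medians of 0.24 to 0.34 over these fits. The part of such a response in the values of the 10 genes was not tested.

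Among relatives and partners of the 10 genes, none passed the thresholds in the edgeR fit used here or in DESeq2, but a few did in other settings. *Per2* (log2 fold change -0.75, SE 0.38) was downregulated with no filter on low counts, without control 2 and without control 3. *Cebpe* was downregulated without control 3 and without library 3 labelled *Pf4-iCre*. *Rora* and *Dusp16* were upregulated without control 1, and *Cebpg* without library 1 labelled *Pf4-iCre*. Of 18 tested clock genes other than *Per1*, 0 passed in edgeR or DESeq2, 1 had an unadjusted *P* under 0.05 and the median log2 fold change was -0.04, and the most abundant, *Bhlhe40* and *Nfil3*, had -0.31 (SE 0.27) and 0.27 (SE 0.16). Of 24 paralogs, 0 passed in edgeR or DESeq2, 3 had an unadjusted *P* under 0.05 and the median was 0.02. *Cebpb*, the relative of *Cebpd* in myeloid cells, had -0.19 (SE 0.24), and *Dusp5*, a nuclear relative of *Dusp1* that acts on ERK, had -0.19 (SE 0.13). Of 22 genes for kinases and other partners of the proteins, 0 passed in edgeR or DESeq2, 0 had an unadjusted *P* under 0.05 and the median was -0.01, with 0.06 (SE 0.13) for *Mapk14*, the p38 kinase that DUSP1 inactivates, and 0.07 (SE 0.13) for *Nfkb1*.

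**Figure D4:**
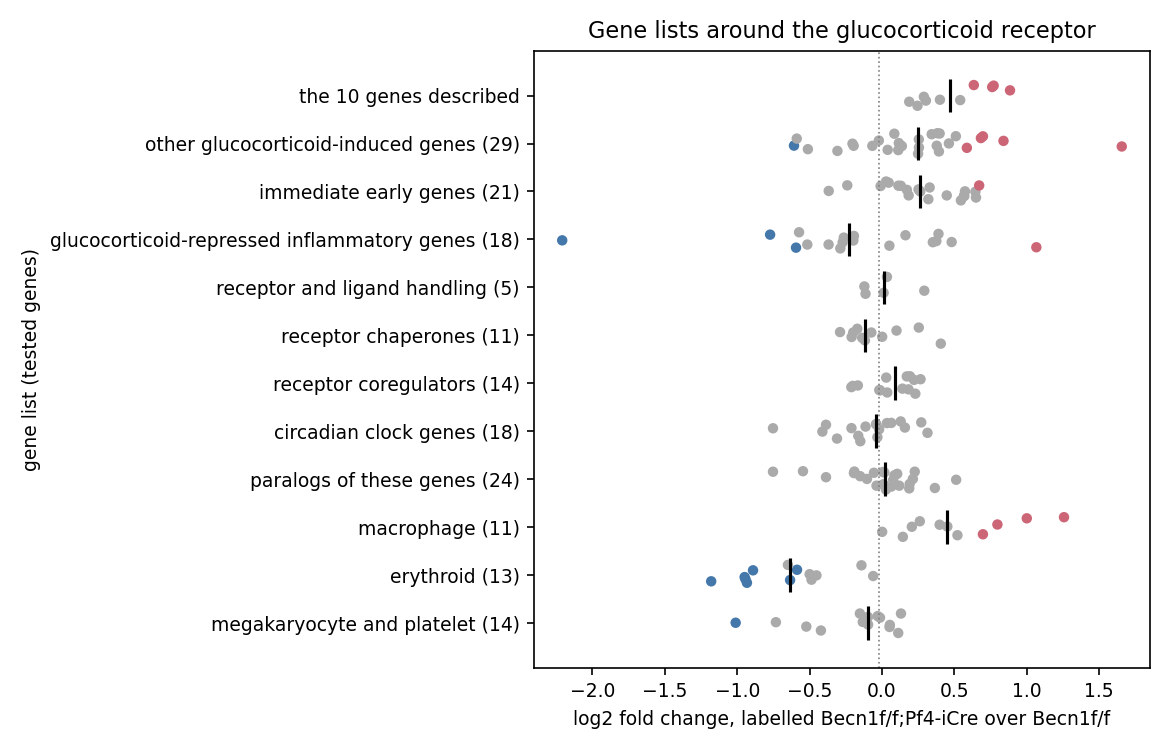
Log2 fold change of every tested gene in each list, with the number of tested genes in brackets; red points were upregulated, blue points downregulated, grey points neither, black lines are medians, and the dotted line is the median of all tested genes (-0.02). The medians of the 10 genes (0.47) and of the macrophage markers (0.45) lie furthest right, and that of the erythroid markers (-0.64) lies furthest left.

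Markers of macrophages and of erythroid cells included several that passed the thresholds. Of 11 tested macrophage markers, all had a positive log2 fold change (0.001 to 1.26) and 4 were upregulated, with a median of 0.45. Those were *Mrc1*, the mannose receptor (1.26, SE 0.19), *Siglec1*, the sialoadhesin of marrow macrophages (1.00, SE 0.36), *C1qc*, a subunit of complement C1q (0.80, SE 0.36), and *Cd163* (0.70, SE 0.20), the last of which is also in the glucocorticoid-induced list. The whole list of 15 macrophage markers took 0.0702% to 0.0815% of counts in the controls and 0.0806% to 0.0961% in the libraries labelled *Pf4-iCre*, ranges that overlap. Relative to the control means, the median over the tested markers was -0.60, 0.36 and 0.28 (log2) in controls 1, 2 and 3. It was 0.46, 0.325 and 0.80 in libraries 1, 2 and 3 labelled *Pf4-iCre*. Without control 1, 3 were upregulated and the median log2 fold change was 0.27. Without library 1 or without library 3 labelled *Pf4-iCre*, 3 were upregulated, and without control 2, 5 were. With limma on log2(FPKM + 1), *Mrc1* alone of these markers passed. Of 13 tested erythroid markers, 7 were downregulated and 0 upregulated, with a median of -0.64 (4 were downregulated in DESeq2, 4 without control 1, 3 without library 1 labelled *Pf4-iCre*, 1 with limma on log2(FPKM + 1) and 2 with limma at a mean FPKM of at least 1). The 14 neutrophil markers had a median of -0.41, with 0 past the thresholds in edgeR or DESeq2 and 4 at an unadjusted *P* under 0.05, and 6 were downregulated without library 3 labelled *Pf4-iCre*. In the lists for B cells, for T and NK cells, for mast cells, basophils and eosinophils, and for endothelium and stroma, *Igll1* of B cell precursors (-0.85, SE 0.31) and *Kdr* of endothelium (-0.80, SE 0.32) were downregulated and no other gene passed. No gene of these lists was at 0 in every library, and the part of such cells in the values of the 10 genes was not tested.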

How the data were processed

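RNA-seq of sorted BM MKs was taken from 3 *Becn1*f/f libraries and 3 labelled *Becn1*f/f;*Pf4-iCre*, with genotype and replicate number read from the sample labels. Reads were filtered for quality, adapters and unknown bases, and the submitters' processing notes name HISAT, Bowtie2 and the genome build GRCm39 (mm39); the counting tool is not given in the sources used here. The authors deposited, per gene, an estimated count, not a whole number for 10.3% to 11.3% of genes per library, and an FPKM value scaled for transcript length and library size. A further 16 columns of per-sample values, 4 of them from a library that matches no sample mapped here, and 8 columns of group means were not used.

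After rounding of the estimated counts and edgeR's expression filter, TMM-scaled counts were compared by the quasi-likelihood test of edgeR 4.0.16 (R 4.3.3, genotype only, Benjamini-Hochberg adjustment over 12256 genes). The SE of a log2 fold change was obtained as its absolute value over the square root of F. CPM values are TMM-scaled, and FPKM was used to compare genes. The genes and lists were chosen with earlier results of these data known. Named were the 10 genes in every library, the genes of each list past the thresholds (fold change of 1.5, unadjusted *P* under 0.05) or else the 2 with the highest mean FPKM, *Fkbp5* and *Becn1*. Clock genes and paralogs that passed only in alternative settings were also named. Alternatives were DESeq2 1.42.0, its size factors in edgeR, upper-quartile scaling, no filter, at least 10 counts in every library, the replicate number as a block, limma 3.58.1 on log2(FPKM + 1) (also restricted to a mean FPKM of at least 1) and on log2(FPKM + 0.1), a GC and length correction and leaving out each library. For that correction, GC content and transcript length were matched for 12025 of the tested genes in GENCODE M21. Replicates of a genotype correlated with r of 0.981 to 0.992 on the log2 scale, and no pair agreed within sampling noise (chi-square over degrees of freedom, 15.4 to 50.7). Steps were tested on simulated data. An exact two-sided permutation test of 3 against 3 cannot give a p below 0.1.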

Additional observations from a re-analysis of the deposited data

How the results depend on the processing

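All 10 genes kept a positive log2 fold change in 16 of 16 alternative settings, and their median lay between 0.43 and 0.51. Of the 10, 3 to 5 were upregulated across those settings at the thresholds used. In the edgeR fit used above, 0 were when the adjusted p, not the unadjusted one, had to be under 0.05. At that level, DESeq2 called 3 of the 10, as given above. In alternative settings, edgeR called *Map3k6* with no filter on low counts and with the GC and length correction, and *Errfi1* and *Zbtb16* without control 1. The share of all tested genes called at that level is not given for these edgeR settings, so nothing is read from these calls. The number of upregulated genes among all tested genes, 167 in edgeR, was 88 with limma on log2(FPKM + 1) and 96 with a mean FPKM of at least 1, and 133 to 267 when 1 library was left out. With limma, the share of calls that were upregulated was 72.7% and 70.1% in those settings, with equal numbers in each direction (216 and 216) at a pseudocount of 0.1, against 59.2% in edgeR. The other glucocorticoid-induced genes had 5 upregulated, but 3 in both limma settings on log2(FPKM + 1). The repressed inflammatory genes had 3 to 5 downregulated when 1 library was left out, and 2 with the GC and length correction and in every limma setting. The causes of these shifts were not tested. Log2 fold changes of all tested genes fell with GC content (Spearman's rho -0.34 across genes), and after the correction rho was -0.0044.

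The samples were treated as unpaired, as the labels describe no shared mouse. Same-numbered libraries had correlations of 0.068, -0.28 and 0.20 between their deviations from the group means, and differently numbered ones had -0.297 to 0.241. Whether libraries shared a litter or a day of sorting is not given in the labels and was not tested. With the replicate number as a block, 4 of the 10 genes were upregulated, with a median of 0.49, among 180 upregulated genes in all, 4 other glucocorticoid-induced genes were upregulated and 2 repressed genes were downregulated. Precision is limited by 3 libraries per genotype rather than by depth, since the lowest of the 10 genes, *Errfi1*, still had 148 estimated counts or more in every library.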
